A study of Homo sapiens with 6 samples.

Results

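The HOX cluster genes are the 39 genes of the HOXA, HOXB, HOXC and HOXD clusters, chosen by gene symbol (HOX, a cluster letter and a number) from the 38167 genes of the count table, of which 38 are described here. Their transcripts were measured by RNA sequencing of polyadenylated RNA in spheroids of Cal27, an established line of human tongue squamous cell carcinoma. Spheroids grew for 14 days in soft Matrigel (3 mg/mL, 3 libraries) or stiff Matrigel (12 mg/mL, 3 libraries). Matrigel is a basement membrane extract, so a higher concentration brings more matrix protein along with more stiffness, and the effects of these cannot be told apart here. All libraries come from 1 cell line with no other treatment, and the labels do not say whether replicates came from separate cultures or days. The p-values therefore measure the spread between these libraries, which may be technical in part.

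HOX proteins are homeodomain transcription factors that give cells their position along the body axis and the limb. In each cluster the genes lie in the order of the body regions in which they act: low-numbered genes act in the hindbrain and neck, central ones in the trunk, and high-numbered ones in the lumbar, limb and tail regions. Adult epithelia keep a regional HOX pattern held by Polycomb repressors and Trithorax activators, and HOX genes are often expressed outside that pattern in carcinomas, oral carcinoma included.

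The promoters of 6 HOX genes that changed are printed to show how unlike their sequences are. Each is the 250 bases before the annotated start in RefSeq on GRCh38.p14, written 5′ to 3′ on the gene's own strand. Capitals mark TAAT, the core letters bound by most homeodomains, TGATNNAT, a composite PBX and HOX site, and TATAAA, the TATA box, each searched on both strands, where overlapping matches run together. Of the 38 genes, 20 had an entry, in 26 distinct windows. TAAT was in 19 of the 26 HOX windows (73.1%) and in 47.5% of all 34943 windows of that length, TGATNNAT was in 3 (11.5%) and in 6.49% of all, and TATAAA was in 5 (19.2%) and in 10.75% of all. A match describes letters and is not evidence of a bound site.
HOXA2, chr7:27102684-27102933, minus strand: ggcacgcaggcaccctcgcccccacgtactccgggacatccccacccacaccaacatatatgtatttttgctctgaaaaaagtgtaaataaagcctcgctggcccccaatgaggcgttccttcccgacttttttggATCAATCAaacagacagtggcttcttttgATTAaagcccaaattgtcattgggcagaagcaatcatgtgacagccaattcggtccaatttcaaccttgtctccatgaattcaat
HOXA4, chr7:27130758-27131007, minus strand: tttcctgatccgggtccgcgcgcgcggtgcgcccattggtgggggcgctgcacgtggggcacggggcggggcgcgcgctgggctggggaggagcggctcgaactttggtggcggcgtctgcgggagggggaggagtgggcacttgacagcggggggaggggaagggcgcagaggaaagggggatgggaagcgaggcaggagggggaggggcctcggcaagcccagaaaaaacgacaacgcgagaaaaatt
HOXA7, chr7:27156676-27156925, minus strand: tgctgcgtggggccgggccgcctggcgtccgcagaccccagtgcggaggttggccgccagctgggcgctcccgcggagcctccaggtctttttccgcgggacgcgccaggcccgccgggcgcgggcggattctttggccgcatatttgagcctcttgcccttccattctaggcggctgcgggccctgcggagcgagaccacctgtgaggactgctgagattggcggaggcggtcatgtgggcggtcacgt
HOXA11, chr7:27185233-27185482, minus strand: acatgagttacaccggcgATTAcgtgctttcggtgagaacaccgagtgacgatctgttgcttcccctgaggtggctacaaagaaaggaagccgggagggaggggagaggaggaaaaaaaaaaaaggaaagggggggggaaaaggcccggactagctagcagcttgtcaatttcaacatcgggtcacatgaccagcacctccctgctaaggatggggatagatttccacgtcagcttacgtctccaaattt
HOXD4, chr2:176151300-176151549, plus strand: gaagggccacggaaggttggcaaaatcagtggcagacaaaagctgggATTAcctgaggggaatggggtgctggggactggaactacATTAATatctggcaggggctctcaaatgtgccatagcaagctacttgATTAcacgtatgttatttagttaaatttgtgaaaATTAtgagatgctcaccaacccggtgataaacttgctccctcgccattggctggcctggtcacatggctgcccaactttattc
HOXD10, chr2:176116528-176116777, plus strand: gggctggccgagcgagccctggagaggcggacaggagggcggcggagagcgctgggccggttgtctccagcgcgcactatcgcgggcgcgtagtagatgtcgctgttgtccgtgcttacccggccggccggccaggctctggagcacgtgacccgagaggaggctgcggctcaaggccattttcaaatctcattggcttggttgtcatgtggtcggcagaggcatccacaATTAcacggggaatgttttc
The HOXD4 window held 5 matches to TAAT, 2 of them overlapping, with 47.6% G and C and 4 CG pairs. The HOXA2 window held 1 TAAT and 1 TGATNNAT, with 47.2% G and C and 8 CG pairs. The HOXA4 and HOXA7 windows held none of the motifs, at 70.0% and 70.8% G and C with 26 and 28 CG pairs, and these are the genes of the HOXA cluster that moved furthest up and furthest down. HOXA11 and HOXD10 held 1 TAAT each, at 51.6% and 64.0% G and C. The median HOX window had 58.8% G and C and 19.5 CG pairs, against 58.0% and 11 over all windows.

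Library totals ran from 30656278 to 40583044 fragments, of which 9855 to 12647 per library fell on HOX genes. Stiff replicate 2 stood apart from its group: over all genes, the chi-square per degree of freedom was 30.7 and 30.2 against the other stiff libraries and 3.26 to 6.99 for the other pairs within a group. All 10 squamous epithelial markers reached a mean of 1 TPM (transcript abundance per length), and their summed level was 14743 to 16023 TPM in soft and 42242 to 44378 TPM in stiff libraries. By the test described below, 6 of the 10 were higher in stiff and 3 lower, against 25.3% and 23.8% of all genes tested. The 9 fibroblast markers summed to 16.8 to 20.5 TPM in soft and 39.6 to 44.2 TPM in stiff, with COL3A1, PDGFRA, THY1 and FAP listed at 0 TPM in every library. Among the 9, 3 reached a mean of 1 TPM. By the same test 2 of the 4 tested were higher in stiff and 0 lower, and the largest log2 difference was 2.92. Summed leukocyte markers, 8 genes, ran from 108.7 to 112.3 TPM in soft and from 136.8 to 156.9 TPM in stiff, with PTPRC and CD3D listed at 0 TPM, and CD68 alone averaged 95.6 TPM. Endothelial markers, 6 genes, summed to 0.6 to 0.9 TPM in soft and 1.1 to 1.8 TPM in stiff, with PECAM1, KDR and EMCN at 0 TPM. The part of these shifts in the HOX results was not tested. In bulk RNA, fewer cells of a type and less RNA per cell cannot be told apart.

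Cal27 spheroids expressed genes of all 4 clusters, at anterior, central and posterior positions. Of the 38 genes, 31 had a mean of at least 1 TPM over the 6 libraries: 10 of 10 in HOXA, 5 of 10 in HOXB, 8 of 9 in HOXC and 8 of 9 in HOXD. The genes below that level were HOXB1, HOXB2, HOXB3, HOXB4, HOXB8, HOXC12 and HOXD3. Of these, HOXB3, HOXB8 and HOXD3 had TPM that imply gene lengths well beyond their annotated exons, as given below. The counts of expressed genes by cluster and by position therefore depend on those lengths. HOXB1 and HOXB2, hindbrain genes at the anterior end of the HOXB cluster, had 20 and 15 fragments over all libraries, and HOXB4 had 42. HOXC12 had 2 fragments in soft replicate 1 and 0 in the other libraries, where a count of 0 allows up to 3 fragments. By position, 3 of 7 anterior genes (paralogue groups 1 to 3), 13 of 15 central genes (4 to 8) and 15 of 16 posterior genes (9 to 13) reached 1 TPM. The most anterior of these was HOXD1, whose row is uncertain, as other genes cover 58.1% of its exons. A fragment was seen in every library for 35 genes, all but HOXB1, HOXB2 and HOXC12.

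**Figure D1:**
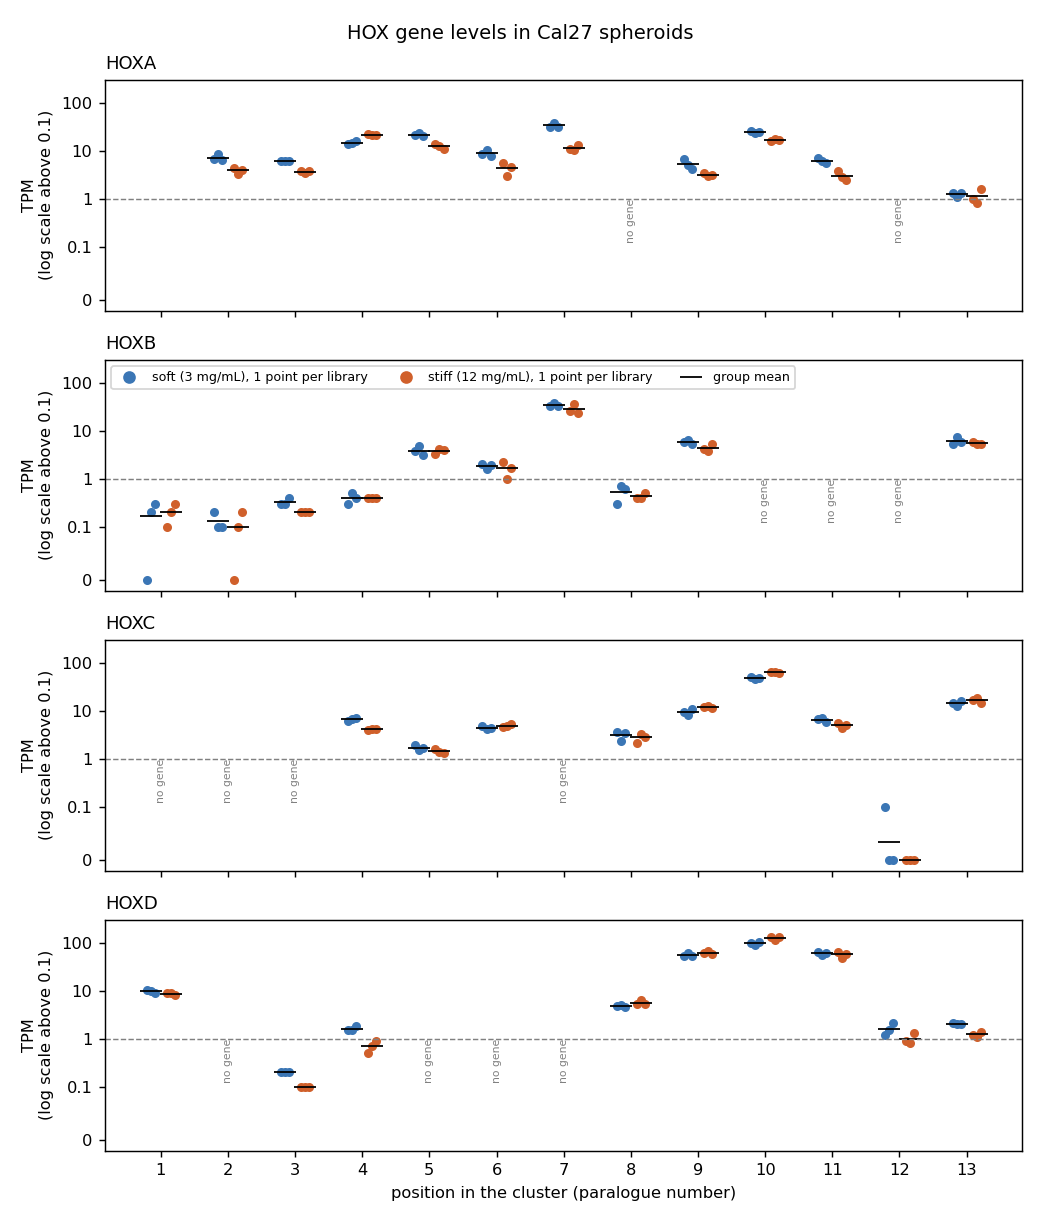
Level of each of the 38 HOX genes in TPM, in the order of the genes along each cluster, with 1 point per library, a line at each group mean and a dashed line at 1 TPM, on a scale that is logarithmic above 0.1 TPM. The highest levels are at HOXD9, HOXD10 and HOXD11 and at HOXC10, while HOXB1, HOXB2 and HOXC12 lie near 0.

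The highest levels per length belonged to posterior genes of HOXD and HOXC. HOXD10, a limb and lumbar patterning gene, had the highest mean, 111 TPM: 96.9, 90.8 and 101.1 TPM in the soft and 129.7, 114.8 and 129.8 TPM in the stiff libraries. HOXD9 and HOXD11, its neighbours and limb genes as well, averaged 59.1 and 58.8 TPM, and HOXC10, which acts in the lumbar spinal cord and hindlimb, averaged 55.3 TPM. The libraries of HOXD9 (53.0 to 66.4 TPM) and HOXD11 (47.6 to 65.4 TPM) overlapped, as did those of HOXC10 (46.2 to 64.7 TPM), so the order among these genes is within their spread. HOXD10 lay above all of them in TPM in every library, an order that depends on the implied lengths given below. HOXB7, reported at raised levels in several carcinomas, followed at 31.5 TPM, then HOXA7 at 22.5, HOXA10 at 20.5, HOXA4 at 17.9, HOXA5 at 16.8, HOXC13 at 15.4 and HOXC9 at 10.7 TPM. The other 20 genes above 1 TPM lay between 1.15 (HOXD4) and 9.28 TPM (HOXD1).

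TPM depend on the gene length used, and they understate some members. Dividing counts by TPM gave the gene length that the deposited TPM imply, which was 38.5 kb for HOXA3 against 4306 exon bases in GENCODE release 29, and 70.2 kb for HOXB3 against 7456, the second only roughly since its TPM was 0.2 to 0.4. HOXD3 (14.7 kb), HOXB8 (10.3 kb), HOXD13 (9.0 kb), HOXD8 (6.75 kb) and HOXD4 (6.2 kb) were also longer than their annotated exons. For HOXD10 the implied length was shorter, 1.77 kb against 2692 exon bases, which raises its TPM. That of HOXD9 was 1.86 kb against 1870, so the lead of HOXD10 in TPM depends on the length used. The RefSeq interval of HOXA3 (chr7:27107010-27152583) contains HOXA4, HOXA5 and HOXA6, so the HOXA3 row may hold fragments of its neighbours. Per library size HOXA3 was the highest HOX row in soft libraries, at 55.4 ± 1.95 CPM (counts relative to the library size, not divided by length; mean ± SD, n = 3).

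In stiff matrix most HOXA genes were lower than in soft matrix, while the HOX genes that were higher included the most abundant HOXC and HOXD genes. By edgeR's quasi-likelihood test with Benjamini-Hochberg adjustment over all 18676 genes tested, 16 of the 34 HOX genes tested passed 0.05. Over all genes 49.1% passed, so the HOX share was near the background. Of the 34 tested, 4 rose in stiff (HOXA4, HOXC9, HOXC10 and HOXD10) and 12 fell. Over all genes tested, 25.3% rose and 23.8% fell. The 3 libraries of one group lay above all of the other for 20 of the 34 HOX genes and for 59.9% of all genes tested. The median log2 difference of the 34 genes, stiff minus soft, was -0.18, and over all genes it was near 0 with a median absolute difference of 0.35. Without stiff replicate 2, 3 HOX genes rose and 13 fell, and the count that fell was lowest, at 10, without soft replicate 2.

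**Figure D2:**
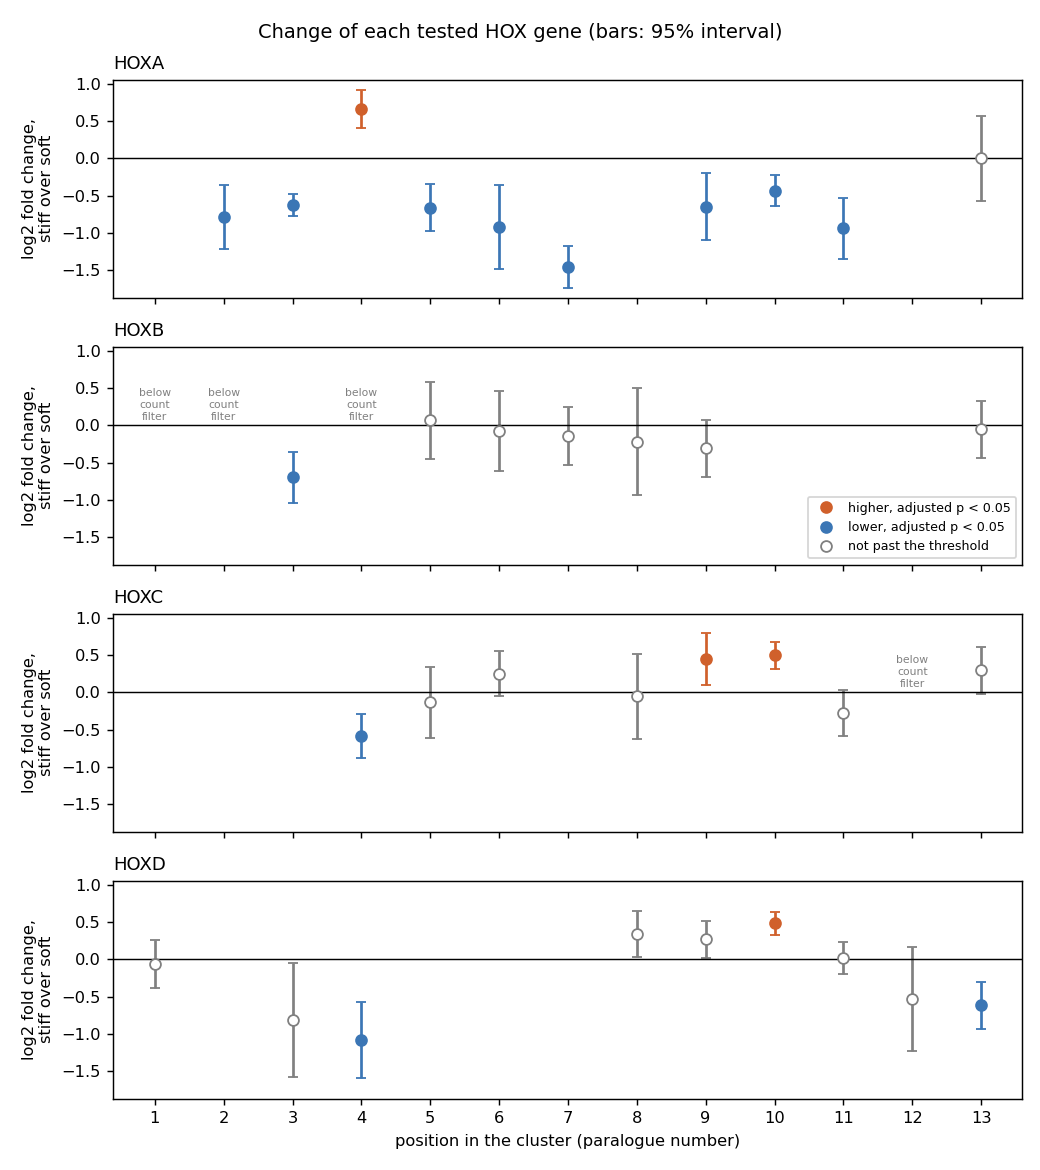
Log2 difference in CPM, stiff minus soft, for the 34 tested HOX genes in cluster order, with bars for the 95% interval of the edgeR fit and colour for the call. HOXA holds 8 of the 12 genes that fell, with HOXA7 lowest at -1.45, and HOXA4 is the HOXA gene that rose.

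Most rows of the HOXA cluster, on chromosome 7, were lower in stiff. Of its 10 genes, 8 fell and HOXA4 rose, HOXA13 was short of the threshold, and the median log2 difference was -0.65. The shares of all genes tested were 23.8% lower and 25.3% higher. Without soft replicate 2, 6 fell. Among the 9 genes called, only HOXA2, HOXA3 and HOXA5 are not uncertain by the overlap rule given below. The rows of HOXA3 and HOXA5 may share fragments. The summed level of the cluster was 127.4, 135.2 and 122.6 TPM in the soft and 83.9, 78.0 and 80.5 TPM in the stiff libraries. The groups did not overlap, and HOXA made up 24.3% to 26.4% of all HOX TPM in soft and 16.01% to 16.41% in stiff libraries. Within the sum, the HOXA7 row, which cannot be told from HOXA-AS3, went from a mean of 33.6 to 11.4 TPM. Sums and shares were not tested, and whether clusters differed from each other was not tested.

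The anterior genes HOXA2 and HOXA3, which pattern the hindbrain and the pharyngeal arches, fell. HOXA2, which sets the identity of the second pharyngeal arch, had 2.599, 3.43 and 2.51 CPM in soft and 1.80, 1.51 and 1.64 CPM in stiff libraries. Its groups were well apart, 1.72-fold lower in stiff (adjusted p = 0.0072), and none of its annotated exon bases is shared with another gene. HOXA3, needed for thymus and parathyroid, had 53.3, 55.7 and 57.2 CPM against 35.6, 36.1 and 36.1 CPM, 1.54-fold lower with little spread (adjusted p = 5.09e-05). Its row cannot be read as HOXA3 alone, given the model length above.

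HOXA4 moved against its neighbours. This central gene of axial patterning had 5.25, 5.77 and 6.30 CPM in soft and 9.05, 9.64 and 8.65 CPM in stiff libraries, 1.58-fold higher (log2 0.66, standard error 0.12, adjusted p = 0.00109). The groups did not overlap, and the call held under all 14 alternatives, which changed the scaling, tool, filter or replicate block or left out 1 library. GENCODE places 31.0% of the HOXA4 exons under the transcript AC004080.6 on the same strand and 14.5% under HOXA-AS2, an antisense RNA that fell, so the row is uncertain. HOXA5, which acts in lung and airway development, lies next to it and had 7.89, 9.20 and 7.88 CPM in soft and 5.62, 5.80 and 4.38 CPM in stiff libraries. All stiff libraries were below all soft ones, 1.58-fold lower (adjusted p = 0.00318). No other GENCODE exon overlaps HOXA5, but it lies within the HOXA3 interval described above. HOXA6 had 1.88, 2.43 and 1.80 CPM against 1.36, 0.785 and 1.08 CPM, 1.89-fold lower (adjusted p = 0.012, and 0.0524 without soft replicate 2). The antisense RNA HOXA-AS3, which fell, covers 39.3% of the HOXA6 exons and held 1985 fragments against 331 for HOXA6, so this row is uncertain too.

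HOXA7 changed most among the HOX genes tested. It is known in keratinocytes as a repressor of differentiation genes. It lies at chr7:27153716-27156675 on the minus strand, and its libraries had 14.2, 18.4 and 15.2 CPM in soft and 5.42, 5.66 and 6.38 CPM in stiff. Every stiff library was far below every soft one, 2.74-fold lower (log2 -1.45, standard error 0.13, adjusted p = 1.17e-05), and its level went from 33.6 ± 3.65 to 11.4 ± 1.32 TPM (SD, n = 3). The antisense RNA HOXA-AS3 covers 62.5% of the HOXA7 exons, and its count was 83.1% to 90.0% of that of HOXA7 in each library. It also fell, 2.63-fold (13.5 ± 1.56 to 5.14 ± 0.567 CPM, adjusted p = 1.64e-05). The rows of HOXA7 and HOXA-AS3 cannot be told apart, since the strand setting of the counting is not given. The GC-rich HOXA7 promoter is printed above with that of HOXA4, which rose, and HOXA5 and HOXA6 lie between these genes on the chromosome.

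Of the posterior HOXA genes, which act in limb, blood and reproductive tract, HOXA9, HOXA10 and HOXA11 fell. HOXA10, a gene of uterus and blood progenitors, had 25.0, 24.7 and 24.5 CPM in soft and 16.8, 20.6 and 17.5 CPM in stiff libraries, 1.35-fold lower (adjusted p = 0.00352), with stiff replicate 2 nearest to the soft group. HOXA11, required for the forearm and the uterus, had 4.19, 3.90 and 3.47 CPM against 2.41, 2.02 and 1.64 CPM, 1.91-fold lower without overlap (adjusted p = 0.00207). HOXA9, a blood stem cell gene, had 3.08, 2.52 and 2.06 CPM against 1.74, 1.63 and 1.55 CPM, 1.57-fold lower (adjusted p = 0.022). That call was lost without soft replicate 1, soft replicate 2 or stiff replicate 3, at adjusted p = 0.111, 0.0528 and 0.0649. The antisense RNA HOXA10-AS, which fell, covers 16.4% of the HOXA10 and 13.9% of the HOXA9 exons. HOXA11-AS, which rose, covers 31.1% of the HOXA11 exons, so the rows of HOXA9, HOXA10 and HOXA11 are uncertain. HOXA13, which shapes the digits and the urogenital tract, had 1.47, 1.32 and 1.58 CPM against 1.22, 1.15 and 2.00 CPM. Those groups overlapped, and the 95% interval of its log2 difference ran from -0.57 to 0.57.

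**Figure D3:**
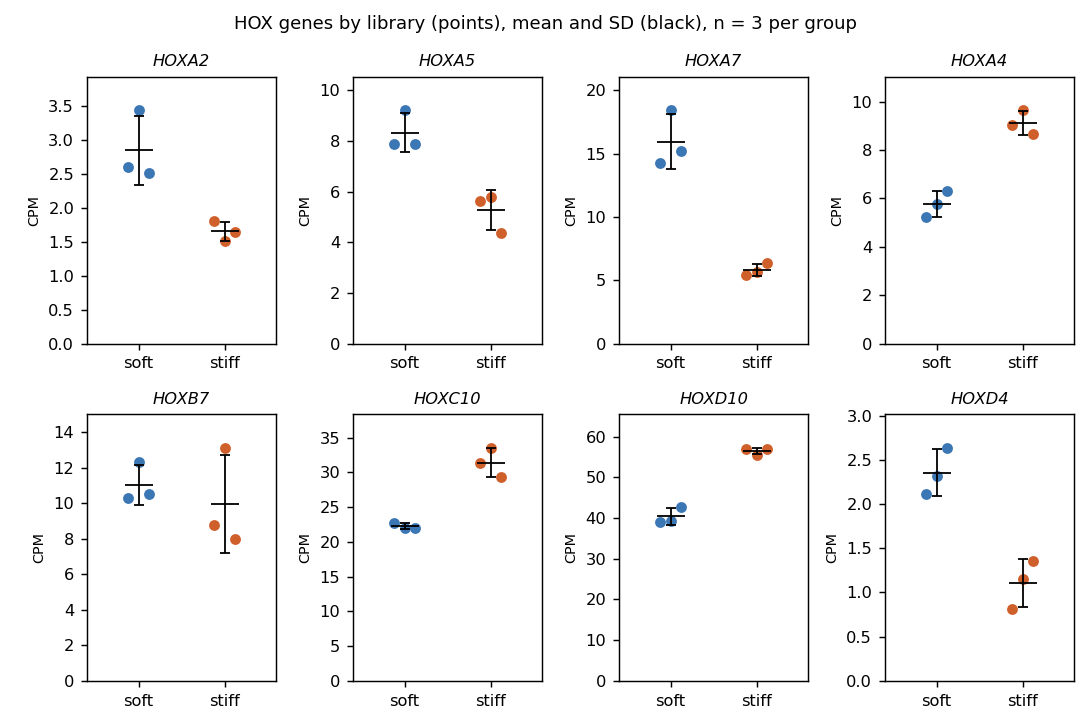
CPM in each of the 3 soft and 3 stiff libraries for 8 HOX genes, with the group mean and SD in black. The soft and stiff points of HOXA7 and of HOXD10 lie far apart, in opposite directions, while those of HOXB7 overlap because stiff replicate 2 sits at 13.1 CPM.

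The HOXB cluster, on chromosome 17, held 1 gene that fell and 0 that rose among 7 tested in the edgeR fit, with a median log2 difference of -0.15. The count that rose was 0 with DESeq2 and limma too, and 0 HOXB genes were higher at an unadjusted p under 0.05. HOXB3, a hindbrain and neck gene, had 5.25, 5.25 and 6.43 CPM in soft and 2.93, 3.62 and 3.85 CPM in stiff libraries, 1.62-fold lower without overlap (adjusted p = 0.00428). Its row spans a long model that reaches over HOXB4, and it left the test when a filter on TPM was used. HOXB7, the most abundant HOXB gene, had 10.3, 12.3 and 10.5 CPM in soft and 8.79, 13.1 and 7.98 CPM in stiff libraries. The groups overlapped through stiff replicate 2 (adjusted p = 0.513, 95% interval of log2 difference -0.54 to 0.24), and without that library HOXB7 was lower (log2 -0.39, adjusted p = 0.00571).

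The other HOXB genes tested overlapped between groups. HOXB13, known from prostate and also made in skin, had 4.40 ± 0.968 CPM in soft and 4.23 ± 0.187 CPM in stiff (log2 interval -0.43 to 0.33). HOXB9, a thoracic gene, had 3.58 ± 0.408 and 2.88 ± 0.455 CPM (-0.69 to 0.07). HOXB5 had 1.69 ± 0.424 and 1.78 ± 0.269 CPM (-0.45 to 0.59), and HOXB6 had 2.31 ± 0.200 and 2.20 ± 0.722 CPM (-0.61 to 0.47), both genes of the cervical and thoracic region. HOXB8 had 1.33 ± 0.557 and 1.13 ± 0.0763 CPM (-0.93 to 0.50). The lower ends of these intervals ran from -0.93 to -0.43, beside a HOXA median of -0.65. The summed HOXB level was 51.1, 59.6 and 50.4 TPM in soft and 42.8, 50.9 and 41.9 TPM in stiff libraries, which overlap.

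The HOXC cluster, on chromosome 12, was higher in stiff at HOXC9 and HOXC10 and lower at HOXC4. Its median log2 difference over 8 tested genes was 0.10, made up of 2 genes up, 1 down and 5 short of the threshold. HOXC10 (chr12:53985146-53990279) had 22.7, 22.1 and 22.0 CPM in soft and 31.4, 33.6 and 29.3 CPM in stiff libraries. The groups were well apart, 1.41-fold higher in stiff (log2 0.50, standard error 0.08, adjusted p = 0.000639), and its level went from 48.0 ± 2.54 to 62.6 ± 2.15 TPM. HOXC9, which patterns thoracic motor neurons, had 3.18, 2.93 and 3.70 CPM against 4.23, 4.99 and 4.13 CPM, 1.36-fold higher (adjusted p = 0.0343). That call was lost under 7 of 14 alternatives (adjusted p 0.0355 to 0.126 over the 14), among them DESeq2 and leaving out soft replicate 1 or 2 or stiff replicate 1 or 2.

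At the other end of HOXC, HOXC4, a cervical gene also expressed in lymphocytes, had 5.54, 6.33 and 6.56 CPM in soft and 3.77, 4.43 and 4.08 CPM in stiff libraries, 1.50-fold lower without overlap (adjusted p = 0.00489). Its exons share 17.8% of their bases with HOXC6, which had 3.85 ± 0.117 and 4.58 ± 0.405 CPM and did not pass (adjusted p = 0.153). HOXC13, the hair and nail keratin regulator, had 7.82, 7.24 and 8.97 CPM in soft and 9.51, 11.6 and 8.40 CPM in stiff libraries. These overlapped (adjusted p = 0.105, log2 interval -0.02 to 0.61), and it passed without stiff replicate 3 (0.0466). HOXC11, a hindlimb and lumbar gene, had 4.95 ± 0.553 and 4.11 ± 0.247 CPM (adjusted p = 0.132), HOXC8, a trunk gene, 1.78 ± 0.377 and 1.72 ± 0.470 CPM (0.878), and HOXC5, 1.30 ± 0.0870 and 1.19 ± 0.118 CPM (0.636). The summed HOXC level was 98.3, 88.7 and 95.8 TPM in soft and 110.4, 111.2 and 105.2 TPM in stiff libraries, without overlap.

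The HOXD cluster, on chromosome 2, carried the largest share of HOX transcripts per length. It made up 44.5% to 46.7% of all HOX TPM in soft and 50.7% to 53.6% in stiff libraries. Cluster shares of TPM depend on the implied lengths, at which HOXA3 averaged 6.1 TPM in soft libraries. In CPM the mean HOXA sum exceeded that of HOXD in soft (123 against 110), and HOXD exceeded HOXA in stiff (130 against 82.3). Of 9 genes tested, HOXD10 rose, HOXD4 and HOXD13 fell and 6 were short of the threshold (median log2 difference -0.06). HOXD10 (chr2:176116778-176119937) had 39.1, 39.2 and 42.8 CPM in soft and 56.9, 55.6 and 56.9 CPM in stiff libraries. All stiff libraries were above all soft ones with a small spread, 1.40-fold (log2 0.48, standard error 0.07, adjusted p = 0.000332). HOXD11, whose exons share 16.8% of the HOXD10 exon bases, had 25.2, 22.7 and 24.9 CPM against 27.4, 22.0 and 24.3 CPM, which overlap (adjusted p = 0.891, log2 interval -0.20 to 0.24). HOXD9 had 22.5, 27.9 and 23.5 CPM against 28.5, 33.7 and 26.9 CPM and missed the threshold (adjusted p = 0.0684, log2 interval 0.02 to 0.52). HOXD8, a trunk gene, had 7.36, 8.44 and 7.46 CPM against 8.84, 11.8 and 8.84 CPM, without overlap but also short of it (0.0623). HOXD8 and HOXD9 passed in edgeR with the replicate number as a block (adjusted p = 0.0230 and 0.0105) and with no count filter (0.0474 and 0.0389). HOXD8 also passed without stiff replicate 1 (0.0499), and HOXD9 without soft replicate 2 (0.0381) or stiff replicate 3 (0.0463).

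The HOXD genes that fell lie on either side of these. HOXD4, a gene of the hindbrain and neck, had 2.12, 2.32 and 2.64 CPM in soft and 0.812, 1.15 and 1.36 CPM in stiff libraries. The groups did not overlap, and the 2.12-fold lower value (log2 -1.08, standard error 0.23, adjusted p = 0.00321) was second in size to HOXA7 among the HOX genes. Its TAAT-rich promoter is the plus-strand sequence printed first of the HOXD pair, and 80.5% of its exons lie under a longer transcript, AC009336.2, that also covers 62.2% of HOXD3. HOXD3 had 0.677 ± 0.0676 and 0.384 ± 0.137 CPM, did not overlap either and did not pass (adjusted p = 0.0733). HOXD13, the digit gene at the end of the cluster, had 4.26, 4.46 and 4.31 CPM against 2.61, 2.80 and 3.08 CPM, 1.53-fold lower (adjusted p = 0.00502). HOXD1 had 4.36 ± 0.301 and 4.19 ± 0.469 CPM (adjusted p = 0.747) and HOXD12, another digit gene, 0.954 ± 0.281 and 0.648 ± 0.135 CPM (0.181). The HOXD1 row is uncertain: 50.1% of its exons lie under AC009336.3 and 8.0% under HAGLR, both on the opposite strand. HAGLR held 5612 fragments against 913 for HOXD1. Summed HOXD levels were 235.6, 227.7 and 235.3 TPM in soft and 274.1, 247.0 and 263.4 TPM in stiff libraries, without overlap.

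**Figure D4:**
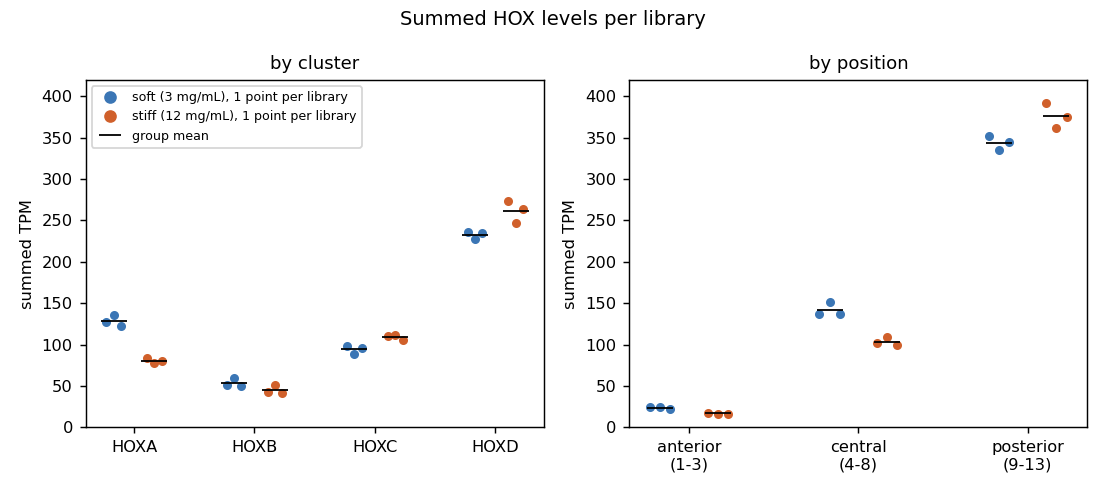
Summed TPM of the genes of each HOX cluster in each of the 3 soft and 3 stiff libraries, and of the anterior, central and posterior genes, with a line at each group mean. HOXA falls from a mean of 128 to 80.8 TPM, HOXC and HOXD lie higher in stiff, the HOXB groups overlap, and none of the sums was tested.

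Summed over all 4 clusters, HOX levels overlapped between the groups. The sum was 509 ± 4.49 TPM in soft and 496 ± 12.9 TPM in stiff libraries. By position, anterior genes summed to 23.9 ± 1.36 TPM in soft and 16.8 ± 0.586 TPM in stiff, central genes to 141 ± 8.43 and 104 ± 5.02 TPM, and posterior genes to 344 ± 8.55 and 376 ± 14.9 TPM. In CPM, not divided by length, the soft and stiff sums were 69.1 and 45.8 (anterior), 71.8 and 59.1 (central) and 174 and 195 (posterior). Of the anterior genes tested, 3 of 5 fell and all 5 had a negative log2 difference. Of the central ones 5 of 14 fell and 1 rose, and of the posterior ones 4 of 15 fell and 3 rose. Over all genes tested, 23.8% fell and 25.3% rose, with a median log2 difference of -0.000174, so the posterior counts were near the background. Whether positions differed from each other was not tested. Position and cluster overlap, as 2 of the 3 anterior genes that fell are HOXA genes.

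Of the 38 HOX genes, 16 share at least 10% of their exons with 1 other annotated gene and are uncertain as single genes. Fragments appear to have been counted for every gene they overlap: the readthrough row HOXA10-HOXA9 held 85.7% to 94.8% of the count of HOXA9, and TALAM1, antisense to MALAT1, held 92.7% to 94.3% of the MALAT1 count. Among the 16 genes called, 7 are not uncertain by that rule: HOXA2, HOXA3, HOXA5, HOXB3 and HOXD13, which fell, and HOXC9 and HOXC10, which rose. HOXA3, HOXB3 and HOXD13 of these have the long models named above. HOXA2 and HOXC10 have none of these limits and kept their call under all 14 alternatives, though other genes cover 9.8% of the HOXC10 exons. HOXA5 kept its call under all 14 as well, but it lies within the HOXA3 interval, so these rows may share fragments.

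Noncoding RNAs of the clusters fell at several HOXA positions and at the HOXD1 end of HOXD. Of 17 tested, 1 rose, 5 fell, 11 were short of the threshold, and the median log2 difference was -0.06. Over all genes tested, 25.3% rose and 23.8% fell. HAGLR, an RNA antisense to HOXD genes near HOXD1, had 35.2 ± 1.35 CPM in soft and 17.4 ± 1.13 CPM in stiff libraries, 2.02-fold lower (adjusted p = 7.08e-06). HOXA-AS2 fell 1.74-fold (11.04 ± 0.497 to 6.34 ± 0.635 CPM, adjusted p = 0.000271), and HOXA10-AS fell 1.39-fold (14.7 ± 0.610 to 10.5 ± 1.08 CPM, adjusted p = 0.00365). HOXA10-AS held 56.9% to 61.5% of the HOXA10 count, so the pair is not independent. HOXA10-HOXA9 fell 1.52-fold (adjusted p = 0.0432) and lost its call under 6 alternatives. HOXA11-AS rose 1.65-fold (1.28 ± 0.115 to 2.11 ± 0.137 CPM, adjusted p = 0.0106), against HOXA11, which fell. Its count was 27.6% to 38.0% of that of HOXA11 in soft and 92.8% to 130.5% in stiff libraries, so these rows, unlike HOXA7 and HOXA-AS3, did not move together.

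**Figure D5:**
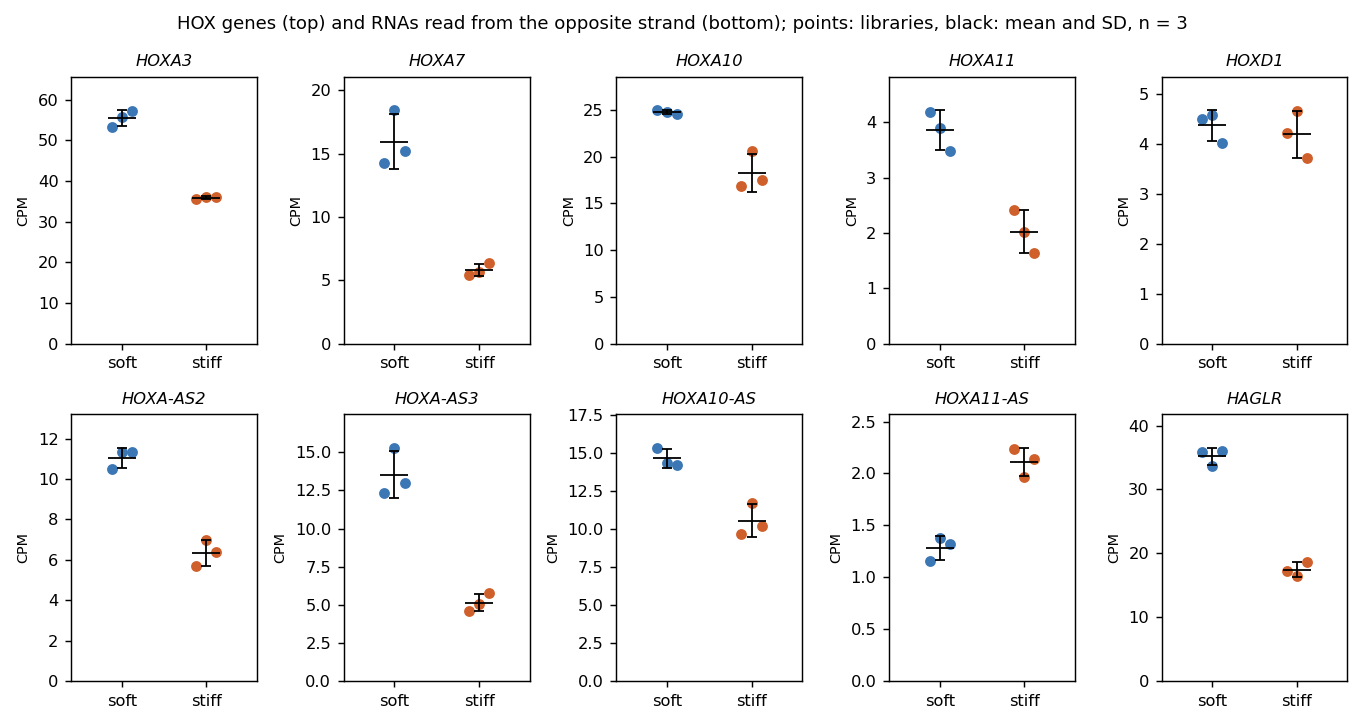
CPM of 5 HOX genes (top) and of an RNA from the opposite strand that overlaps each (bottom), with 1 point per library and the group mean and SD in black. HOXA7 and HOXA-AS3 fall together, as do HOXA10 and HOXA10-AS, while HOXA11 falls and HOXA11-AS rises.

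Other cluster RNAs did not pass. HOTAIRM1, an RNA from the anterior end of HOXA, had 18.5 ± 1.32 and 19.5 ± 1.39 CPM (adjusted p = 0.535), and HAGLROS, next to HAGLR, had 5.09 ± 0.171 and 5.10 ± 1.15 CPM (0.990). HOTAIR, the HOXC RNA known for binding Polycomb proteins, had 3.20 ± 0.648 and 3.70 ± 0.256 CPM (0.350). HOXC-AS1, HOXC-AS2, HOXC-AS3, HOXC13-AS, HOXB-AS1 and HOXB-AS4 had adjusted p of 0.0733, 0.770, 0.114, 0.792, 0.318 and 0.511. The row of MIR196B, which lies between HOXA9 and HOXA10, held 54 fragments in soft and 32 in stiff libraries (adjusted p = 0.0930). Mature miR-196b-5p, a known repressor of HOX messages, is not measured in polyadenylated RNA. It is printed from RefSeq with its seed in capitals, because its locus lies between HOX genes whose rows fell.
hsa-miR-196b-5p: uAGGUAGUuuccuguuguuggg

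HOX proteins bind DNA with partners of the PBX, MEIS and PKNOX families, and these moved in single members. Of 7 cofactor genes tested, PBX3 rose 1.597-fold (6.61 ± 0.631 to 10.5 ± 0.742 CPM, adjusted p = 0.000901) and MEIS2 fell 1.58-fold (22.2 ± 1.44 to 14.01 ± 1.597 CPM, adjusted p = 0.000511). PBX2, the most abundant cofactor per length at 85.7 TPM, had 64.8 ± 1.50 and 70.2 ± 2.29 CPM and did not pass (adjusted p = 0.165). PKNOX1 had 28.2 ± 0.935 and 27.7 ± 1.67 CPM (0.821). The list's median log2 difference was 0.03, and over all genes tested 25.3% rose and 23.8% fell.

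Among chromatin regulators that hold HOX domains, the shares that passed were near the background of 49.1% of all genes, with 25.3% higher and 23.8% lower. Of 34 Polycomb group genes, 8 rose and 7 fell (median log2 difference -0.01 over all 34). PHF1 and PHF19, accessory subunits that bring Polycomb complex 2 to chromatin, rose 2.34-fold (44.8 ± 1.82 to 105 ± 12.99 CPM, adjusted p = 4.63e-06) and 1.96-fold (17.8 ± 1.41 to 35.0 ± 0.591 CPM, adjusted p = 1.01e-05). CBX6, a chromodomain subunit of Polycomb complex 1, fell 1.65-fold (111 ± 4.23 to 67.6 ± 1.98 CPM, adjusted p = 1.6e-05), and RNF2, the ubiquitin ligase of that complex, rose 1.72-fold (24.6 ± 1.26 to 42.2 ± 4.05 CPM, adjusted p = 7.2e-05). Of 23 Trithorax and COMPASS genes, 3 rose and 7 fell, with a median of -0.21. RBBP5, a core COMPASS subunit, fell 1.34-fold (adjusted p = 0.0047), MLLT1, of the elongation complexes, 1.26-fold (0.0082), and KMT2D, an enhancer methyltransferase, 1.68-fold (0.0104), whereas KDM6B, which removes the Polycomb mark, rose 1.45-fold (0.00785). KDM6B and KMT2D lost their calls under limma on TPM in 3 and 2 settings, and MLLT1 in 1 (adjusted p = 0.0526). KMT2D had 158, 119 and 134 CPM in soft and 94.9, 52.9 and 96.5 CPM in stiff libraries. The groups did not overlap, and stiff replicate 2 was the lowest. With 1 library left out at a time, the list's count higher ranged from 1 (without soft replicate 1 or 3) to 5 (without stiff replicate 2) and its count lower from 3 (without soft replicate 1) to 11 (without stiff replicate 1). Of 12 insulator and cohesin genes, which bound HOX domains, 1 rose and 5 fell: RAD21 rose 1.26-fold (0.00171, not called by limma), and WAPL, CTCF and SMC3 fell 1.23-fold, 1.25-fold and 1.20-fold (0.00698, 0.00948 and 0.0132). These p-values are from the same edgeR fit. CTCF and SMC3 lost their calls without soft replicate 1 and under limma with no TPM filter (adjusted p up to 0.0617 and 0.0728), and without soft replicate 1 the list had 1 gene lower.

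Retinoic acid induces anterior HOX genes in embryos, and genes that take up, make or carry retinoids changed in both directions. Of 14 tested, 6 fell and 2 rose, with a median log2 difference of -0.06, against 23.8% and 25.3% of all genes. Without soft replicate 2, soft replicate 3 or stiff replicate 3, 1 gene of this list rose. STRA6, the retinol uptake receptor, fell from 101 ± 4.74 to 5.80 ± 0.837 CPM (17.4-fold, adjusted p = 1.84e-08), and RDH10, which oxidises retinol, fell from 345 ± 18.1 to 55.1 ± 2.45 CPM (6.26-fold, adjusted p = 1.84e-08). DHRS9, another retinol dehydrogenase, fell 32.3-fold (adjusted p = 8.03e-08), and DHRS3, which turns retinal back into retinol, 2.43-fold (adjusted p = 4.96e-07). CRABP2, a retinoic acid carrier named after its values were seen, rose 3.51-fold (21.2 ± 1.17 to 74.6 ± 18.2 CPM, adjusted p = 8.15e-06). Whether these changes bear on the HOX genes was not tested. Of 10 tested genes that flank the clusters or belong to the ParaHox set, HIBADH, near HOXA, rose 1.21-fold (adjusted p = 0.0113) and SMUG1, near HOXC, fell 1.26-fold (0.00797), a share below the background. HIBADH lost its call without soft replicate 1 and under limma on log2(TPM + 0.1) (adjusted p up to 0.0701), and SMUG1 under the latter (0.0597). Of 30 other homeobox genes tested, 12 rose and 2 fell, against 25.3% and 23.8% of all genes, with a median of 0.14, among them HOPX (16.4-fold higher, from 23 to 386 fragments, adjusted p = 9.81e-06), IRX2 (1.56-fold higher, 7.24e-05), DLX5 (3.03-fold higher, 0.000238) and PRRX2 (2.33-fold lower, 0.000447).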

How the data were processed

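Paired reads of 61 bp came from 6 Cal27 spheroid libraries made with a kit that marks strand (59.7 M reads on average, per the labels' protocols). Per the submitters' processing notes, the tools were featureCounts 1.6.2, STAR 2.6.1e, cutadapt 1.9.1, Trim Galore 0.4.2 and FastQC 0.11.7, on hg38. Which annotation was used, whether strand was used and how fragments over several genes were handled is not given in the sources used here. Per the file headers and values, the authors' deposited counts hold whole fragments for each gene symbol without normalization, and 0 rows lack a name. The authors' deposited TPM are given to 1 decimal, 1 table per library.

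The HOX genes and the lists beside them were chosen with earlier results of these data known. Of these, 1 HOX gene and 1 list gene are not reported here and enter no count or sum. Stiff was compared with soft by edgeR 4.0.16 in R 4.3.3 (TMM factors, default count filter, quasi-likelihood F test, no covariate) on the counts, with Benjamini-Hochberg adjustment over all 18676 genes tested and a threshold of 0.05. The method was tested on simulated counts, in which the share of false calls exceeded the threshold with each tool. It was 11.6% with edgeR, 19.5% with DESeq2 and 12% with limma on log2 CPM. There edgeR recovered 6.25% of 1.25-fold, 55.1% of 1.5-fold and 73.5% of 2-fold changes, among 48, 49 and 49 changed genes tested. Far fewer genes were changed in the simulation than passed in the data, so these rates may not carry over. CPM use TMM-scaled library sizes. Limma 3.58.1 on log2 TPM and DESeq2 1.42.0 were alternatives. A mean of 1 TPM counted as expressed. Exon overlaps came from GENCODE release 29, positions and sequences from RefSeq tables of GRCh38.p14. The other HOX genes are all accounted for; those past the threshold or at 1 TPM are named with values, as are cluster RNAs by the same rule, cofactors at 5 TPM, and up to 4 members of each other list with the smallest p. PTPRC, CD3D and the other markers at 0, and CD68, were named after their values were seen. Of 31 cluster RNAs listed, 25 were matched by name in the table. Of the 5 marker lists, squamous markers gave 6 higher and 3 lower of 10 tested, fibroblast 2 higher of 4, endothelial 1 higher of 2, leukocyte 2 higher and 1 lower of 4, and neural and muscle 1 lower of 3.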

Additional observations from a re-analysis of the deposited data

How the results depend on the processing

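Under 14 alternatives to the edgeR fit, 12 of the 16 HOX calls held throughout, 25 of the 34 tested genes kept their side of the threshold, and none changed direction past it. HOXC9, HOXA9, HOXA6 and HOXB3 lost their calls under at least 1 alternative. HOXB genes lower were 0 in place of 1 under limma on log2(TPM + 1), log2(TPM + 0.1) and with no TPM filter. HOXC genes higher were 1 in place of 2 with library size only, the DESeq2 Wald test and limma with no TPM filter. HOXD genes higher were 3 in place of 1 with no count filter. With 1 library left out at a time, HOX genes higher ranged from 3 to 6 and lower from 10 to 13, HOXA lower from 6 to 8, HOXB lower from 1 to 2 (2 without stiff replicate 2), HOXC higher from 1 to 3 (3 without stiff replicate 3) and HOXD higher from 1 to 2 (2 without soft replicate 2, stiff replicate 1 or stiff replicate 3); listed context genes ranged from 23 to 37 higher and 24 to 39 lower. Context genes higher were 29 in the main fit and 16, 15 and 19 in the 3 limma settings. In place of TPM, CPM moved the summed log2 ratio of HOXA from -0.67 to -0.58 and of HOXD from 0.17 to 0.24. Of all genes called, 51.5% were higher in the main fit, 44.7% with library size only and 41.3% to 43.3% with limma; the median of all genes was -0.11 with limma on log2(TPM + 0.1). With the replicate number as a block, 18 HOX genes passed (16 shared), and HOXD genes higher were 3. Over all genes 10206 passed with the block and 9171 without it. Correlations of deviations between soft and stiff libraries of the same number were 0.07, 0.22 and 0.05. Those between libraries of different numbers ran from -0.16 to 0.09. The labels do not say that the numbers mark pairs, so the main fit has no block, and these values do not settle whether libraries were paired. HOXD3, HOXD12 and HOXB8, with 41 to 137 fragments per group, had standard errors of 0.31 to 0.34; the parts of depth and of spread between libraries in these were not separated.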
